A study of Arabidopsis thaliana with 11 samples.

Results

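WRKY proteins are plant transcription factors, and the 10 genes described here are those of the family best known for responses to stress in Arabidopsis thaliana: WRKY18, WRKY40, WRKY60, WRKY33, WRKY70, WRKY54, WRKY53, WRKY46, WRKY6 and WRKY75. They were chosen by name and gene identifier from what the family is known for, but with earlier results of these data known. All 10 were among the 33602 genes of the expression table. Each reached 1 RPKM (a read density corrected for gene length and library size) in at least 2 of the 6 columns, so all 10 were among the 19669 genes compared. Their RNA was measured in seedlings, 11 days old, of ecotype Columbia, grown on sucrose medium in continuous light. The 6 genotypes were wild type (WT), a line in which a miRNA lowers PTB1 (At3g01150) and PTB2 (At5g53180) together (MI12), a line in which a miRNA lowers PTB3 (At1g43190) (MI3), and lines that overexpress PTB1 (OE1), PTB2 (OE2) or PTB3 (OE3). PTB1, PTB2 and PTB3 are homologues of polypyrimidine tract-binding protein, an RNA-binding regulator of splicing, and the study set lines with more or less of each against wild type. The labels describe 11 libraries, 1 for MI3 and 2 for each other genotype, but the table holds 1 value per gene and genotype. There is therefore no spread between replicates and no test of any difference. The promoters of the transgenes and the number of independent transformants behind a genotype were not known here.

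WRKY proteins carry 1 or 2 copies of a DNA-binding domain that begins with the amino acids WRKYGQK and is held together by a zinc finger. They bind the W box, a short DNA element with the core TTGAC, in promoters of defence genes and of WRKY genes themselves, so the family forms a network of activators and repressors that regulate each other. In Arabidopsis leaves the 10 genes are known for responses to pathogens, salicylic acid, wounding, abscisic acid, leaf ageing and phosphate shortage, and several of them are induced within minutes to hours of a stimulus.

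The codons of the WRKYGQK stretch are shown because they identify each locus as a WRKY gene and show how alike these genes are to a sequencing read. They were read from RefSeq coding sequences on the TAIR10.1 genome, with the 7 codons in capitals between the neighbouring coding bases, and the positions are those of the codons. WRKY33 holds 2 copies of the domain and each other gene holds 1.
WRKY18, chr4:15384316-15384336, plus strand: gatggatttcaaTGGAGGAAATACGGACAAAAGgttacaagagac
WRKY40, chr1:30384789-30384809, plus strand: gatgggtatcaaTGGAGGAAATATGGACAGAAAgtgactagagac
WRKY60, chr2:10630643-10630663, plus strand: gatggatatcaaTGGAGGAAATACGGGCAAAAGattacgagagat
WRKY33 first copy, chr2:16109358-16109378, plus strand: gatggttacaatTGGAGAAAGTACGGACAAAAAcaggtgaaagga
WRKY33 second copy, chr2:16109982-16110002, plus strand: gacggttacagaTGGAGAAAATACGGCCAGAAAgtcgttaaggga
WRKY70, chr3:20909760-20909780, minus strand: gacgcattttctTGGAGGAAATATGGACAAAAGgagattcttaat
WRKY54, chr2:17001378-17001398, minus strand: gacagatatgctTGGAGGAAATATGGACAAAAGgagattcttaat
WRKY53, chr4:12393134-12393154, minus strand: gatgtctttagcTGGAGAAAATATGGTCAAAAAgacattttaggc
WRKY46, chr2:19044313-19044333, minus strand: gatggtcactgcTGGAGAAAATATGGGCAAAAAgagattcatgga
WRKY6, chr1:23017701-23017721, minus strand: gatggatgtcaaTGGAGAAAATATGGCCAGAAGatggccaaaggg
WRKY75, chr5:4150786-4150806, minus strand: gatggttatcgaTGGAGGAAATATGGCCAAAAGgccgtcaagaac
Among the 11 stretches there were 10 distinct codon runs, since WRKY70 and WRKY54 used the same codons. The longest stretch shared by the exons of any pair of the 10 genes was 35 bases, between WRKY70 and WRKY54, followed by 18 bases between WRKY18 and WRKY60. All 31-base words of the exons were sought elsewhere in the genome and in the joined exons of the rest of the 10 genes. Of these words 6.95% in WRKY40 recurred, all in the locus AT3G32090, against 0.625% in WRKY70, 0.642% in WRKY54 and 0.0% in the other 7 genes. Reads of WRKY40 may therefore be shared with that locus, and how the authors handled such reads was not known here. On the other strand, WRKY53 is overlapped by AT4G23800 over 341 bases, WRKY33 over 298 bases by its neighbours and WRKY40 over 51 bases by AT1G80850. AT4G23800 was at 19.1 to 23.6 RPKM in the 6 columns, well above WRKY53. Without a stated strand setting, part of the WRKY53 value may come from that gene.

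As a check of the labels, PTB1 and PTB2 in MI12 were at 26.9% and 44.4% of WT and PTB3 in MI3 at 18.2% of WT, while PTB1 in OE1 was at 63.8 times, PTB2 in OE2 at 38.0 times and PTB3 in OE3 at 3.35 times WT. The steps between low values corresponded to about 47.0 megareads in MI3 and between 80.3 megareads (OE2) and 97.1 megareads (OE1) in the other columns. A WRKY gene was covered by about 43 reads (WRKY54 in MI3) to 9367 reads (WRKY18 in WT). Intervals below are 95% exact intervals on these read numbers. They cover counting error only and hold no difference between plants. PCR copies were not marked by molecular identifiers, so copies may count as separate reads and the intervals may be too narrow. Each difference is log2(RPKM + 1) of a line less that of WT, so the changes of genes with low values come out too small. A difference of at least 1 on that scale is called 2-fold. Pairs of lines set against each other below, rather than against WT, were picked after their levels were seen.

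**Figure D1:**
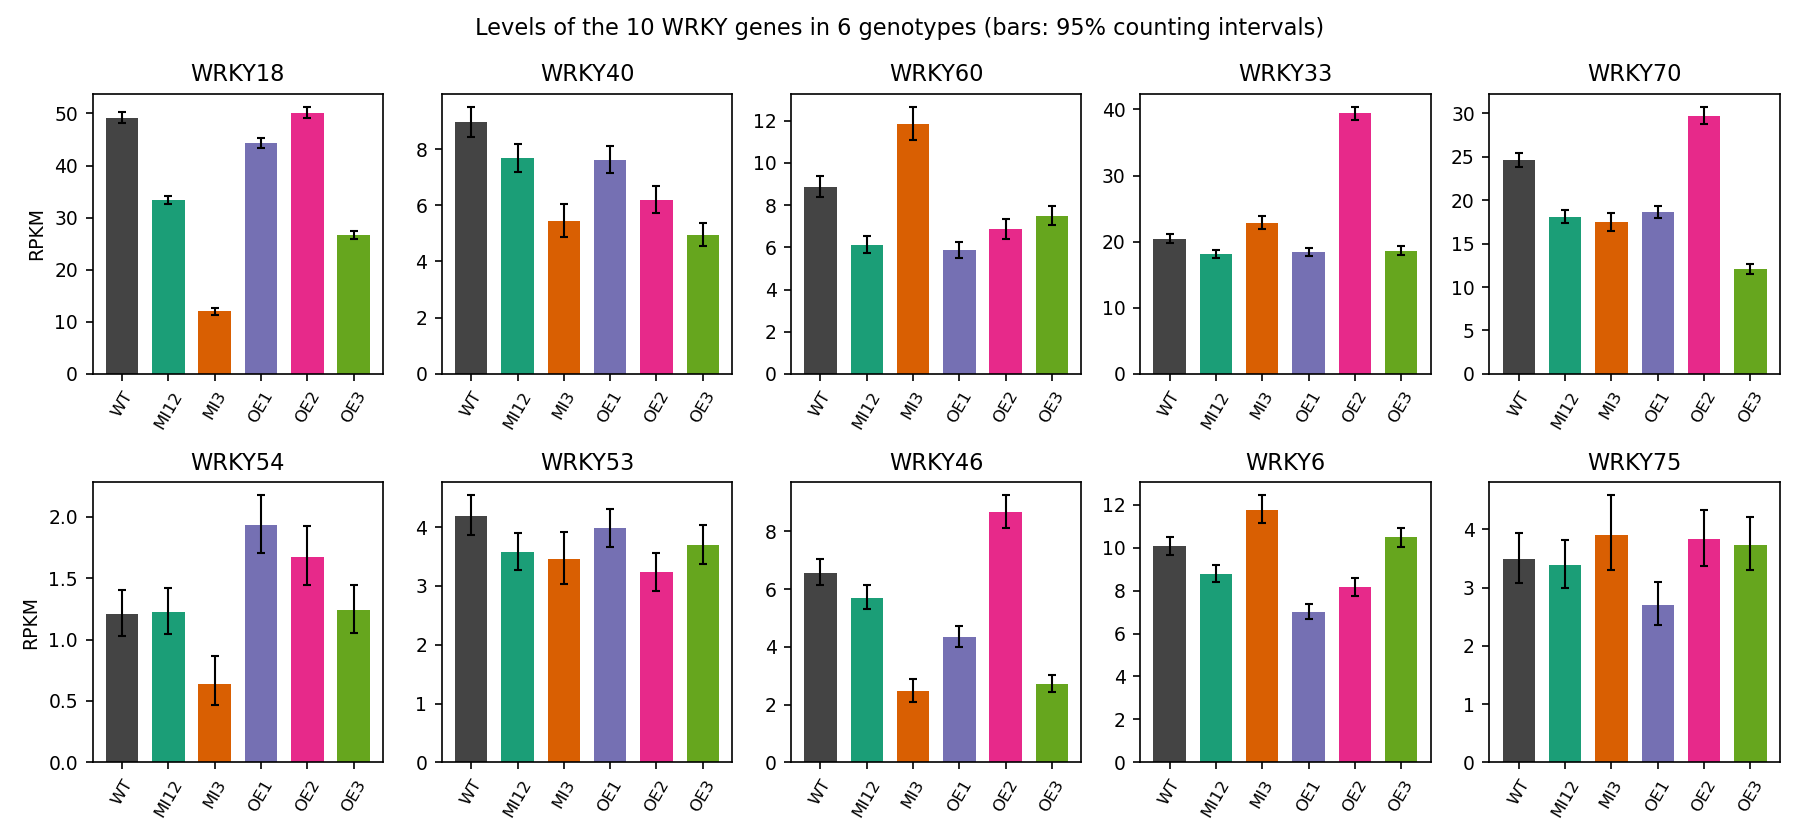
Level of each of the 10 WRKY genes in RPKM (y axis, a separate scale in each panel) in the 6 genotypes (x axis). Bars give the 1 deposited value per genotype and error bars its 95% counting interval. WRKY18 was lowest in MI3 at 11.99 RPKM, WRKY33 was highest in OE2 at 39.4 RPKM, and WRKY46 was lowest in MI3 and OE3 at 2.47 and 2.73 RPKM.

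WRKY18, WRKY40 and WRKY60 form one subgroup of the family. Their proteins pair with each other through leucine zippers, together restrain basal defence against biotrophic pathogens, and take part in abscisic acid signalling. WRKY18 (AT4G31800, TAIR10.1 chromosome 4, 15382777 to 15385100) was the most abundant of the 10 genes in 5 of the 6 columns. Its level was 50.2 RPKM in OE2, 49.2 in WT, 44.4 in OE1, 33.3 in MI12, 26.7 in OE3 and 11.99 in MI3. MI3 was thus far below every other genotype, OE3 came next and MI12 after it, while OE2 and WT did not differ beyond counting error. The MI3 level was 24.4% of WT, a ratio of 0.244 with an interval of 0.229 to 0.259, or -1.95 on the log2 scale. Only 0.31% of all genes compared were as far or further below WT in MI3. In OE3 the ratio to WT was 0.543 with an interval of 0.524 to 0.562, and in MI12 it was 0.677 with an interval of 0.656 to 0.699.

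WRKY40 (AT1G80840, chromosome 1, 30383561 to 30385499), which is induced early by wounding and by bacterial elicitors, was highest in WT. Its level was 8.96 RPKM in WT, 7.67 in MI12, 7.63 in OE1, 6.20 in OE2, 5.45 in MI3 and 4.94 in OE3. All 5 lines lay below WT beyond counting error, by -0.75 in OE3 and -0.63 in MI3 on the log2 scale and by -0.20 in MI12, and none was 2-fold apart. WRKY60 (AT2G25000, chromosome 2, 10629662 to 10631413), which WRKY18 and WRKY40 are known to regulate, had another order. It was at 11.8 RPKM in MI3, 8.86 in WT, 7.50 in OE3, 6.86 in OE2, 6.12 in MI12 and 5.87 in OE1. MI3, the line with the lowest WRKY18, had the highest WRKY60. It was 1.34 times the WT level (interval 1.23 to 1.46) and 2.02 times the OE1 level (interval 1.84 to 2.22). Of all pairs among the 10 genes, WRKY18 and WRKY60 had the least similar profiles over the 6 columns, with a root mean square difference of 0.93 on the log2 scale after each profile was centred on its own mean. That measure also grows with the range of a gene, which was widest for WRKY18.

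WRKY33 (AT2G38470, chromosome 2, 16108235 to 16110766) is a substrate of MAP kinases and activates synthesis of camalexin, the main phytoalexin of Arabidopsis, and defence against necrotrophic fungi. Its level was 39.4 RPKM in OE2, 22.9 in MI3, 20.5 in WT, 18.6 in OE3, 18.4 in OE1 and 18.2 in MI12. OE3 and OE1, and OE1 and MI12, did not differ beyond counting error, and OE2 stood apart from 5 columns that lay within 18.2 to 22.9 RPKM. The ratio of OE2 to WT was 1.93 with an interval of 1.85 to 2.01, or 0.91 on the log2 scale, just short of the 2-fold limit, and 0.35% of all genes compared were as far or further above WT in that line. Against OE1, which overexpresses the closest homologue of PTB2, the ratio was 2.14 with an interval of 2.05 to 2.23.

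The next 4 genes belong to the subgroup of WRKY proteins with a distinct zinc finger, and they act around salicylic acid and leaf ageing. WRKY70 (AT3G56400, chromosome 3, 20908711 to 20910623) promotes responses to salicylic acid and restrains those to jasmonate. It was at 29.7 RPKM in OE2, 24.6 in WT, 18.6 in OE1, 18.1 in MI12, 17.5 in MI3 and 12.1 in OE3. OE2 was highest and OE3 lowest, with MI12, MI3 and OE1 close together between WT and OE3. OE3 was at 49.1% of WT, a ratio of 0.491 with an interval of 0.462 to 0.521. On the log2(RPKM + 1) scale that difference was -0.97 and missed the 2-fold limit. OE2 over OE3 gave a ratio of 2.46, interval 2.32 to 2.61.

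WRKY46 (AT2G46400, chromosome 2, 19043411 to 19044955), which acts with WRKY70 and WRKY53 in basal defence and also in osmotic stress responses, showed the same highest line. Its level was 8.67 RPKM in OE2, 6.57 in WT, 5.70 in MI12, 4.34 in OE1, 2.73 in OE3 and 2.47 in MI3. The lines with lowered and with raised PTB3 were both low, and their ratio of 1.11 for OE3 over MI3 had an interval of 0.912 to 1.35, so they did not differ beyond counting error. MI3 was at 37.6% of WT, a ratio with an interval of 0.315 to 0.446 and -1.13 on the log2 scale. OE3 was at 41.6% of WT, with an interval of 0.365 to 0.473 and -1.02 on the log2 scale. The OE2 level was 1.32 times that of WT, interval 1.201 to 1.45.

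WRKY54 (AT2G40750, chromosome 2, 17000419 to 17002528), the closest relative of WRKY70 and its partner in restraining senescence, was the least abundant of the 10 genes. It was at 1.93 RPKM in OE1, 1.67 in OE2, 1.24 in OE3, 1.22 in MI12, 1.21 in WT and 0.642 in MI3. OE1 and OE2 were above WT, with ratios of 1.60 and 1.39 and intervals of 1.31 to 1.96 and 1.12 to 1.72, and MI3 was below it at a ratio of 0.533 with an interval of 0.371 to 0.750. MI12 and OE3 did not differ from WT beyond counting error. WRKY70 and WRKY54 thus differed in their order, with OE3 lowest for WRKY70 and MI3 lowest for WRKY54. WRKY53 (AT4G23810, chromosome 4, 12392370 to 12393982), a promoter of leaf senescence, had the values that varied least of the 10 genes. As said above, part of these values may come from the overlapping gene AT4G23800. Its level was 4.19 RPKM in WT, 3.98 in OE1, 3.69 in OE3, 3.57 in MI12, 3.46 in MI3 and 3.23 in OE2. No neighbours in that order differed beyond counting error, although MI12, MI3, OE2 and OE3 were each below WT beyond it, and the highest column was 1.297 times the lowest.

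WRKY6 and WRKY75 connect the family to phosphate. WRKY6 (AT1G62300, chromosome 1, 23016569 to 23019494), known from senescence and as a repressor of the phosphate exporter gene PHO1, was at 11.8 RPKM in MI3, 10.5 in OE3, 10.08 in WT, 8.78 in MI12, 8.15 in OE2 and 7.002 in OE1. OE1 was lowest, at a ratio to WT of 0.695 with an interval of 0.651 to 0.742, and MI3 highest, at 1.17 with an interval of 1.09 to 1.25. WRKY75 (AT5G13080, chromosome 5, 4149738 to 4151201), which is induced by phosphate starvation and promotes the expression of phosphate starvation genes, was at 3.90 RPKM in MI3, 3.83 in OE2, 3.74 in OE3, 3.49 in WT, 3.39 in MI12 and 2.71 in OE1. Only OE1 differed from WT beyond counting error, at a ratio of 0.776 with an interval of 0.645 to 0.933. In MI3 the WRKY75 ratio of 1.12 had an interval of 0.909 to 1.37. PHO1 was at 40.9 RPKM in MI3 against 16.8 in WT, although WRKY6, its reported repressor, was also above WT there. A link between these levels was not tested.

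**Figure D2:**
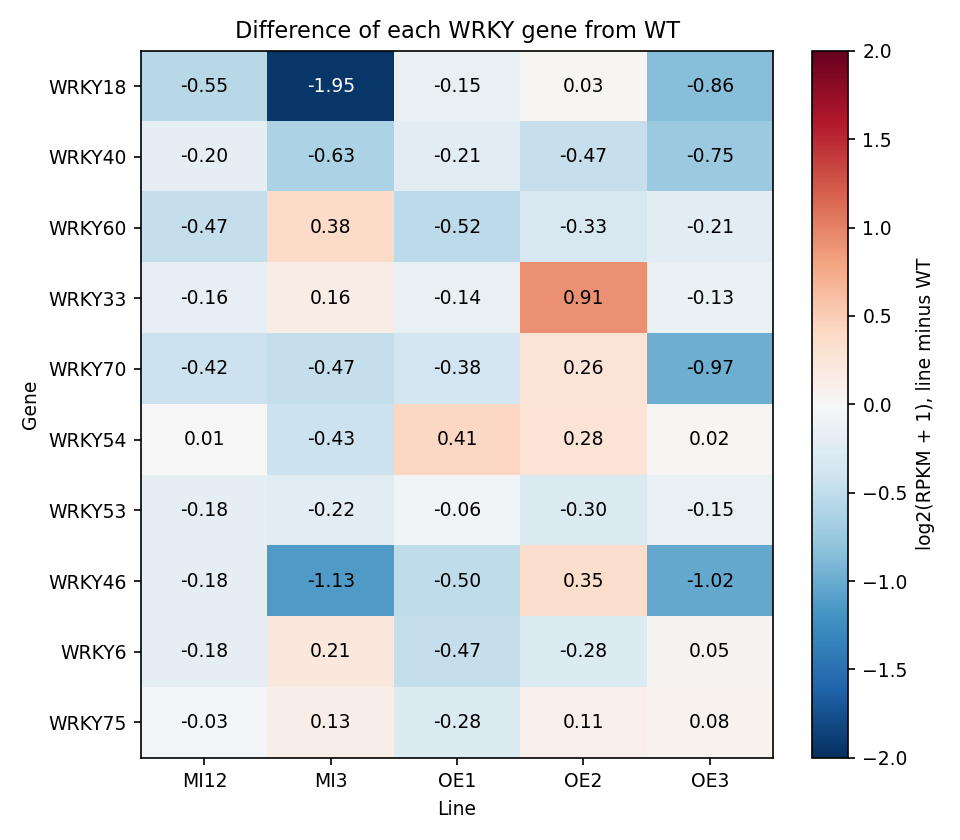
Difference of each WRKY gene (rows) from WT in each line (columns), as log2(RPKM + 1) of the line minus WT, printed in each cell and coloured from blue (below WT) to red (above WT). The lowest cells are WRKY18 in MI3 at -1.95, WRKY46 in MI3 at -1.13 and WRKY46 in OE3 at -1.02, and the highest is WRKY33 in OE2 at 0.91.

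In 4 of the 5 lines more of the 10 genes lay below WT than above it, and in OE2 more lay above. Each of these comparisons uses the same WT column, so a high or low WT value moves all of them. Set against the median of the other 4 lines instead, WRKY46 was no longer 2-fold lower in MI3 (-0.80) or OE3 (-0.69), and WRKY33 (1.05) and WRKY46 (1.09) were 2-fold higher in OE2. The medians given below for MI12, MI3 and OE1 were then -0.083, -0.063 and 0.049, and that for OE2 was 0.17. In MI12, 0 of 10 genes were 2-fold higher or lower, where 0.234% and 0.269% of all genes compared were. Of the 10 genes, 9 lay below WT in MI12, where 10132 of the 19669 genes compared did. Of those 9, 8 were below it beyond counting error, a share that was not counted over all genes. The median difference of the 10 genes was -0.18, against -0.007 for all genes. In MI3, 2 of 10 genes, WRKY18 and WRKY46, were 2-fold lower and 0 were 2-fold higher, where 2.07% and 2.58% of all genes were lower and higher. The median was -0.32 against 0.051 for all genes, and 4 of 10 lay above WT, where 11160 of the 19669 genes compared did. In OE1, 0 of 10 genes passed 2-fold, where 0.310% of all genes were higher and 0.600% lower. Of the 10 genes, 9 lay below WT in OE1, where 10049 of the 19669 genes compared did. WRKY60 (-0.52), WRKY46 (-0.50) and WRKY6 (-0.47) were the lowest, and the median of the 10 genes was -0.24 against -0.005 for all genes.

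OE2 was the only line with a summed level of the 10 genes above WT, at 158 RPKM against 138 in WT and 91.8 to 115 in the other 4 lines. Most of the difference between OE2 and WT was that of WRKY33 (39.4 and 20.5 RPKM). No gene of the 10 passed 2-fold in OE2, where 0.259% of all genes were higher and 0.183% lower. The 10 genes divided into 6 above and 4 below WT, where 7241 and 12416 of the 19669 genes compared lay above and below it. The median of the 10 genes was 0.066 against -0.053 for all genes. WRKY33, WRKY46, WRKY54 and WRKY70 were above WT beyond counting error and WRKY40, WRKY60, WRKY53 and WRKY6 below it. In OE3, 1 of 10 genes, WRKY46, was 2-fold lower and 0 were 2-fold higher, where 0.529% and 0.503% of all genes were lower and higher. WRKY70 (-0.97), WRKY18 (-0.86) and WRKY40 (-0.75) followed, and the other 6 genes lay between -0.21 and 0.077. At a limit of 1.5-fold on the same log2(RPKM + 1) scale, chosen after the values were seen, 4 of 10 genes were lower and 0 higher in OE3, where 2.16% and 2.35% of all genes were. In MI3, 3 of 10 were lower and 0 higher, where 6.31% and 8.99% of all genes were. In OE2 WRKY33 was the 1 of 10 that was higher, where 1.36% of all genes were. In MI12 and OE1, 0 of 10 genes passed this limit, where 1.13% and 1.41% of all genes were higher and 1.57% and 3.83% lower. As plain ratios, WRKY54 (1.60), WRKY60 (0.662) and WRKY46 (0.661) in OE1 were more than 1.5-fold from WT, and so was WRKY54 in MI3 (0.533).

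**Figure D3:**
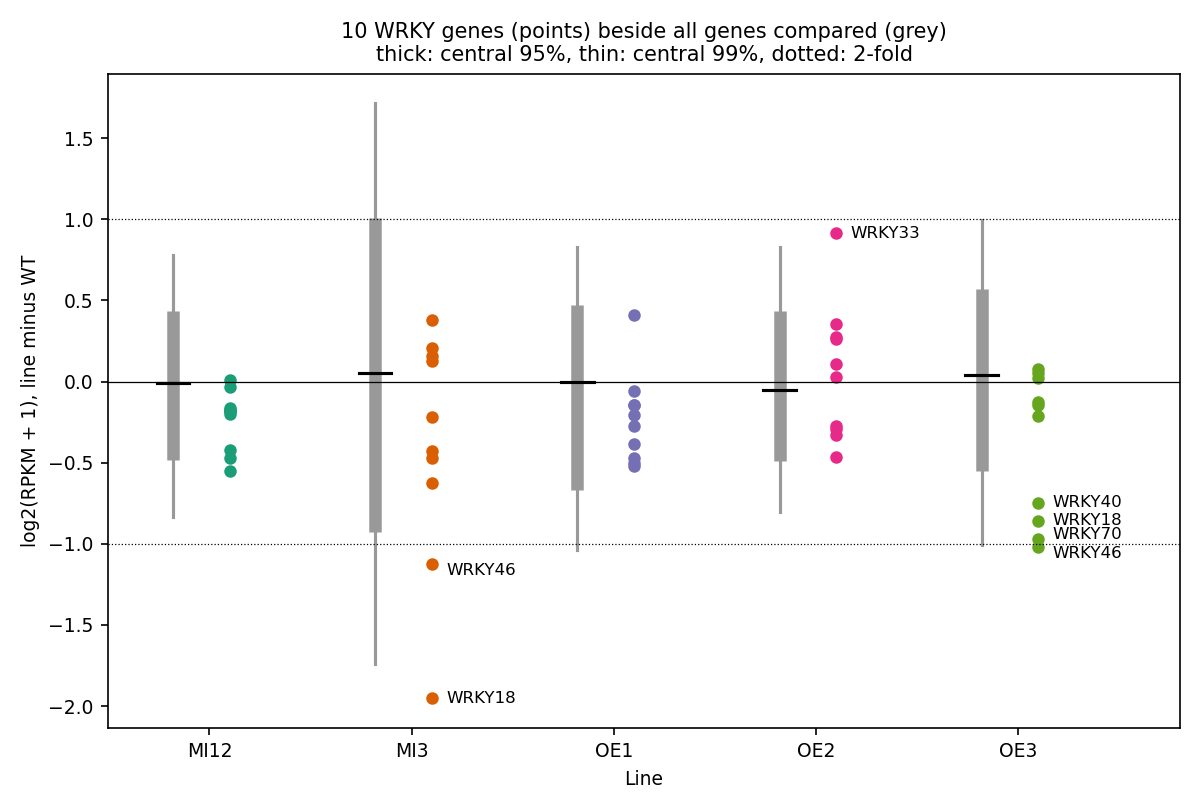
Differences from WT on the log2(RPKM + 1) scale (y axis) in the 5 lines (x axis). Points are the 10 WRKY genes and grey bars the spread of all 19669 genes compared, with the central 95% thick, the central 99% thin and the median as a black tick. WRKY18 in MI3, WRKY33 in OE2 and WRKY46 in OE3 lie outside the thin bar of their line.

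The other WRKY genes were compared to see how far the 10 genes stood for their family. The annotation gives a WRKY symbol to 57 further genes of the table, of which 35 reached the limit for comparison. Among these 35, MI3 had 2 genes 2-fold lower, WRKY22 (12.1 RPKM in WT, 2.56 in MI3) and WRKY25 (29.0 and 12.8), and OE2 had 1 gene 2-fold higher, WRKY26 (14.4 and 35.7). WRKY22 acts in early responses to bacterial flagellin, and WRKY25 and WRKY26 are close relatives of WRKY33 with roles in heat tolerance. The other 3 lines had 0 of 35 genes past 2-fold. Medians of the 35 genes were 0.11 in MI3, 0.041 in OE3, -0.081 in MI12, -0.12 in OE1 and -0.16 in OE2. In MI3, OE3 and OE2 they thus lay on the other side of zero from the medians of the 10 stress-responsive genes (-0.32, -0.18 and 0.066). They lay on the same side as the medians of all genes compared, which were 0.051, 0.039 and -0.053 in these lines. With median-of-ratios scaling the medians of all genes were -0.007, -0.005 and -0.004. The difference between the 10 and the 35 genes was not tested. In OE2, 25 of the 35 genes were below WT, where 12416 of the 19669 genes compared were.

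None of the genes listed as acting upstream of these WRKY proteins or beside them passed 2-fold. The list held MPK3, MPK4 and MPK6, the MAP kinases of immune signalling, MKS1, SIB1 and SIB2, which bind WRKY33, and NPR1, EDS1, PAD4 and ICS1 of the salicylic acid pathway. In each of the 5 lines 0 of 10 genes passed 2-fold, and medians lay between -0.28 (MI3) and -0.13 (MI12). SIB1 was at 8.08 RPKM in WT, 4.24 in MI3 and 5.23 in OE3. PAD4 was at 11.1 RPKM in WT, 6.18 in OE3 and 11.7 in OE2. The salicylic acid synthesis gene ICS1 was at 7.08 RPKM in WT, 9.08 in OE2, 5.08 in OE1 and 4.98 in OE3. Its intervals in OE1 (4.78 to 5.39) and OE3 (4.67 to 5.30) overlapped. By value OE2 was highest and OE3 lowest, as for WRKY70. NPR1 and EDS1 did not share that order. NPR1 was lowest in OE2, at 12.1 RPKM against 14.8 in WT, and EDS1 was at 19.3 RPKM in WT, 15.6 in OE2 and 12.2 in OE1, its lowest column.

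Of 9 genes reported in Arabidopsis as targets of the 10 WRKY proteins, 5 reached the limit for comparison. PR1, a marker of salicylic acid responses downstream of WRKY70, was at 60.6 RPKM in OE2, 34.1 in OE1, 30.005 in WT, 22.2 in MI12, 18.6 in MI3 and 15.3 in OE3. The camalexin gene PAD3, a target of WRKY33, had 19.1 RPKM in WT and was below it in all 5 lines, at 10.3 in OE1 and 11.8 in OE2. CYP71A13, another camalexin gene, was at 5.34 RPKM in WT, 7.71 in OE2 and 14.6 in OE1, where it was the 1 of 5 genes 2-fold higher. It has a close copy in the genome, so its reads are uncertain. ACS6, an ethylene synthesis gene, had 8.55 RPKM in WT against 13.5 in MI3, and PHO1 was the 1 of 5 genes that was 2-fold higher in MI3. The senescence marker SAG12 was at 0.146 RPKM or less in all 6 columns.

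Fast stress genes and organ markers moved with some of these differences. Of 9 fast stress genes compared, all 9 were below WT in OE3, where 8106 of the 19669 genes compared were. Their median in OE3 was -0.60, against 0.039 for all genes. In each of MI12, OE1 and OE2, 7 of the 9 were below WT, with medians of -0.26, -0.41 and -0.23. Of the 19669 genes compared, 10132, 10049 and 12416 were below WT in these lines, with medians of -0.007, -0.005 and -0.053. The touch-induced TCH3 was at 402 RPKM in WT, 182 in OE3 and 51.5 in MI3. In MI3 the list was mixed, with TCH4 at 342 RPKM in WT and 57.7 in MI3 but ERF5 at 4.58 and 10.2. The 5 shoot markers, among them Rubisco activase (RCA), summed to 10899 RPKM in WT, 6562 in MI3, 9359 in OE3 and 12904 in OE2. In this sum MI3 was lowest, OE3 next lowest and OE2 highest, as for WRKY18 and WRKY46. RCA and FBA2 shared those places, but the other shoot markers did not. LHCB1.3 was highest in MI12 (5571 RPKM) and GLDP1 in OE1 (292), and RBCS1A was lower in MI12 (3706) than in OE3 (4012). The 6 root markers, among them CASP1 and PYK10, summed to 683 RPKM in WT, 1743 in MI3, 819 in OE3 and 446 in OE1. PYK10 made up most of that sum, at 626 RPKM in WT and 1583 in MI3. In MI3 the ratio to WT was 3.59 for PRP3 and 2.99 for EXP7, but CASP1 (1.09, interval 0.975 to 1.23) and CASP2 (0.991, interval 0.852 to 1.15) did not differ from WT beyond counting error. All 5 root markers compared were above WT in OE3 and below it in OE1, and none of the 11 markers was at 0 in any column. Fewer cells of a type and less RNA per cell cannot be told apart in seedlings, and the part of these marker differences in the WRKY results was not tested.

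The profile over the 6 genotypes was compared with other genes for WRKY18 and WRKY70, which are among the 3 WRKY genes of widest range. Likeness was the root mean square difference between log2(RPKM + 1) profiles, each centred on its own mean, over 6532 other genes with a symbol and at least 5 RPKM in at least 2 columns. Nearest to WRKY18 were GASA1 (0.134), CA1 (0.134) and FLA13 (0.158). CA1, the plastid carbonic anhydrase, was at 523 RPKM in OE2, 491 in OE1, 444 in WT, 303 in OE3, 295 in MI12 and 124 in MI3. Nearest to WRKY70 were the mitochondrial carrier gene DIC2 (0.111), the receptor-like protein gene RLP34 (0.134) and CAMBP25, whose product binds calmodulin (0.135). Within the 10 genes the most similar pair was WRKY6 and WRKY75, at 0.151. The profiles were not scaled, so genes that vary little come out near each other whatever their order. In OE2 WRKY6 was below WT and WRKY75 was not.

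**Figure D4:**
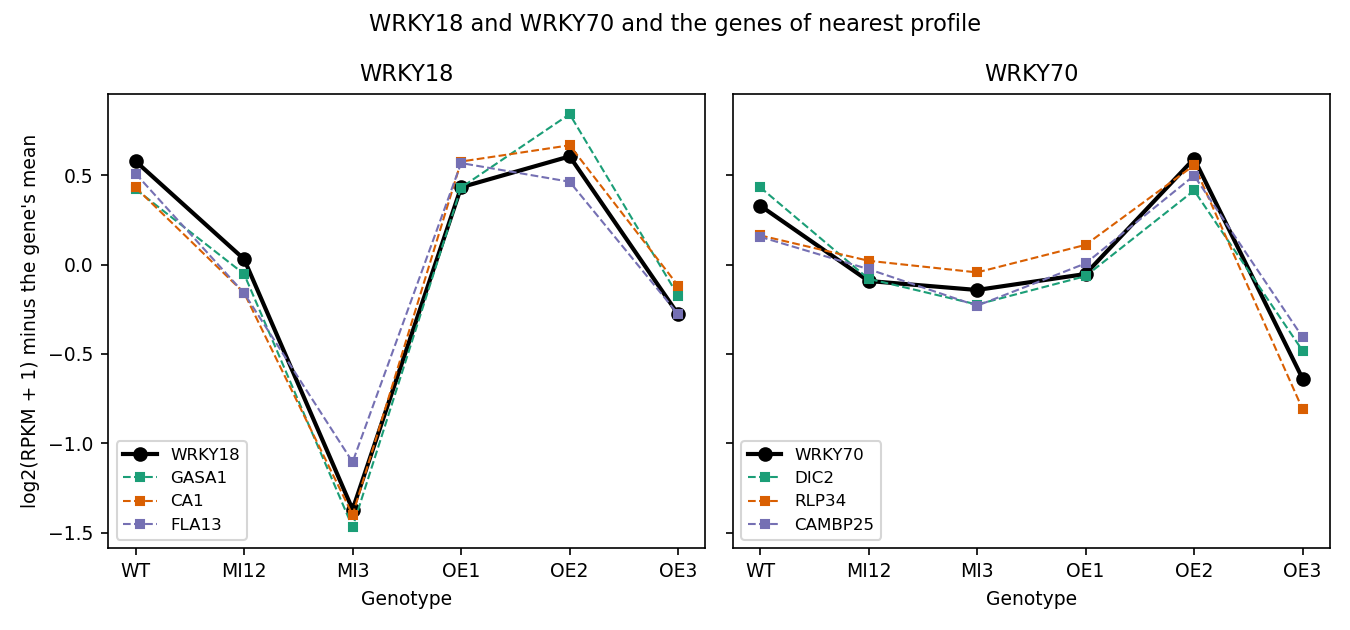
Profiles of WRKY18 and WRKY70 (black) and of the 3 nearest other genes of each (dashed) over the 6 genotypes (x axis), as log2(RPKM + 1) minus the mean of the gene over the 6 columns (y axis). WRKY18 and its neighbours share a low point in MI3, and WRKY70 and its neighbours a low point in OE3, where WRKY70 was at 12.1 RPKM.

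W boxes were counted in the promoters because WRKY genes are known to regulate each other through them. The words TTGACC and TTGACT were searched on both strands. In the 250 bases before the annotated start, 3 of the 10 genes held at least 1 of them, WRKY33, WRKY53 and WRKY75, where 28.27% of the same windows of 18963 nuclear protein-coding genes compared did. In 1000 bases, 9 of 10 genes held at least 1, where 67.5% of those genes did, and WRKY70 held 0. At least 3 boxes in 1000 bases were found in WRKY18, WRKY60 and WRKY33, and in 13.16% of those genes. The short windows of WRKY33, the gene furthest above WT, and of WRKY18, the gene furthest below it, are shown 5′ to 3′ in the direction of transcription, from TAIR10.1 with RefSeq gene starts, with W boxes in capitals.
WRKY33, chr2:16107985-16108234, plus strand: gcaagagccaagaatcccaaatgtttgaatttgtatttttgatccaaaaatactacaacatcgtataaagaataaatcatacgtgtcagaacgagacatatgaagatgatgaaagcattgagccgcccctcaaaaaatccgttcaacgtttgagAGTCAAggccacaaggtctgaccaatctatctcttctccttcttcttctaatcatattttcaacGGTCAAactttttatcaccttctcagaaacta
WRKY18, chr4:15382527-15382776, plus strand: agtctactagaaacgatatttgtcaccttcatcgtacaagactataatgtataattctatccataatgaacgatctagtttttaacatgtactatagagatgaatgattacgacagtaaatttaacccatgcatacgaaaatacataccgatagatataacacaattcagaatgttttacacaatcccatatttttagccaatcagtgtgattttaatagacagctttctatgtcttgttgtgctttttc
The WRKY33 window holds 2 boxes on the strand opposite to transcription, the nearer beginning 32 bases before the start, and the WRKY18 window holds 0 of these words. The 3 boxes of WRKY18 within 1000 bases therefore lie further upstream. A match is a match of letters and does not show binding.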

How the data were processed

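The authors deposited RPKM, read densities corrected for gene length and library size, in 1 table with 1 column per genotype. Their build was TAIR10, per the submitters' processing notes. No label or header names the aligner, the counter, its strand setting or how the libraries of 1 genotype were merged. Each column was assigned from its name, which is the genotype part of the library titles. A WT cell that held no number (1 cell) was set to 0.

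The 10 genes, the gene lists and the rules were chosen with earlier results of these data known. The rule for named genes took all 10 genes, other WRKY genes past 2-fold with at least 5 RPKM, up to 4 genes a list and line, and the 3 nearest profiles of the 3 genes of widest range, of which those of WRKY46 are not reported here. A gene was compared if 2 or more columns reached 1 RPKM, with a pseudocount of 1 on the log2 scale. Of the table's identifiers, 32835 matched the TAIR10.1 annotation, the reference used here for names, positions and sequences.

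Read numbers were recovered from the steps between low values at short genes without introns, where between 97.2% and 99.3% of them lay no more than 0.1 from a whole number of reads and 20% would by chance. They rest on TAIR10.1 exon lengths, which may differ from the authors' lengths, so they are approximate. Ratio intervals are exact binomial intervals. The depth estimate, the intervals and the 2-fold rule were run on counts simulated with counting error alone and with changes larger than 2-fold. The intervals assume that same error and the simulation held no difference between plants. It therefore checks the calculation only and cannot show how reliable the differences in these data are. Software was biopython 1.88, matplotlib 3.10.9, scipy 1.17.1, pandas 2.3.3 and numpy 2.4.6 under Python 3.11.15. The limma fit planned for tables with replicate columns could not be run.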

Additional observations from a re-analysis of the deposited data

How the results depend on the processing

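No paired analysis was possible because the table holds 1 value per genotype, and for the same reason no replicate could be left out. The count of 2-fold lower genes in OE3 was 1 as reported, 2 with a pseudocount of 0.1, 2 with median-of-ratios scaling and 4 at a limit of 1.5-fold. WRKY70 was the gene added under the first 2 of these, at -1.02 both times. At 1.5-fold, a limit chosen after seeing the data, the count of higher genes in OE2 was 1. When each line was set against the median of the other 4 lines instead of WT, the count of 2-fold lower genes in OE3 was 0, the count of 2-fold lower genes in MI3 was 1 in place of 2, and the count of 2-fold higher genes in OE2 was 2 in place of 0. WRKY46 was then at -0.80 in MI3, -0.69 in OE3 and 1.09 in OE2, WRKY33 at 1.05 in OE2, and WRKY18 at -1.62 in MI3. Under that reference 14 of the 50 differences turned sign or rounded to zero, the latter being WRKY53 in MI12 (-0.18 before). Among those that turned were WRKY46 in MI12 (-0.18 to 0.56) and WRKY18 in OE1 (-0.15 to 0.55). The median of the 10 genes was 0.049 in place of -0.24 in OE1 and -0.063 in place of -0.32 in MI3. It was -0.083 in place of -0.18 in MI12 and 0.17 in place of 0.066 in OE2. The cause was not tested. Median-of-ratios scaling turned the sign of 1 difference and quantile normalization of 2, all of WRKY54 and all within 0.055 of zero. A pseudocount of 0.5, no filter on low values and leaving out organelle and ribosomal RNA genes, the last chosen after seeing the data, turned the sign of 0 of 50 differences, and a filter of 5 RPKM left 35 differences to compare, with 0 signs turned. It leaves out the lower genes of the 10, and the median of those left was -0.75 in place of -0.18 in OE3, -0.38 in place of -0.24 in OE1, -0.47 in place of -0.32 in MI3 and 0.027 in place of 0.066 in OE2. The OE2 median was also 0.12 with median-of-ratios scaling and 0.11 with quantile normalization. WRKY54, at about 43 reads in MI3, is the gene most limited by depth.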
